A study of Mus musculus with 6 samples.

Results

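Bcor, the gene of the BCL6 corepressor, was followed through 6 RNA-seq libraries of mouse embryonic stem cells. It was taken by its symbol and is 1 of the 1653 genes whose counts were analysed. No source used here says how those genes were picked, so every share, percentile and fold change below is relative to a list that may not stand for the whole transcriptome. The cells were of strain C57BL/6 and grew in fetal calf serum with leukemia inhibitory factor on fibroblast feeders inactivated with mitomycin-C. One group of 3 libraries is labelled wild type, and the other group of 3 is labelled Yaf2KO, a knockout made with Cas9. Yaf2 is not among the genes analysed here, so the knockout was not checked in these counts. The labels do not say whether the Yaf2KO libraries come from 1 clone or several, or whether libraries of a genotype come from separate cultures. The p-values below therefore rest on the differences between these libraries, whose spread may be technical.

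BCOR is a scaffold subunit of PRC1.1, a variant Polycomb repressive complex 1. In this complex BCOR or its paralogue BCORL1 joins PCGF1 and the RING1 ubiquitin ligases, which place monoubiquitin on histone H2A, to KDM2B, a protein that binds unmethylated CpG sites. RYBP or its paralogue YAF2 occupies another position in the same complex, so the knocked-out gene and Bcor encode partners. BCOR was first known as a corepressor that binds the repressor BCL6, and human BCOR mutations affect the eyes, the heart, the palate and the teeth.

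Bcor (ENSMUSG00000040363) lies on the minus strand of chromosome X at 12036740 to 12160355 in mm10, with the same coordinates in the deposited files and in GENCODE M21. The annotation gives it 8 transcripts, 7 of them protein-coding, from 5 start positions. Of these, 4 transcripts start at 12080553 and 1 at the outermost position, 12160355. The union of its exons is 8666 bases long. The values are sums over the whole gene, so isoforms, exons and UTRs were not told apart. No annotated gene overlaps Bcor on either strand, so reads of an antisense neighbour do not enter its count. Of the 13 other genes annotated within 500 kb, 2 of them protein-coding, 0 were among the genes analysed.

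The stretch around the outermost start site is shown because it marks where the counted gene begins and because KDM2B, the partner of BCOR, recognises CpG. It covers 250 bases before and 50 after that start (RefSeq promoter table, GRCm38.p6, chrX:12160306-12160605, minus strand), with each CG pair in capitals.
Bcor: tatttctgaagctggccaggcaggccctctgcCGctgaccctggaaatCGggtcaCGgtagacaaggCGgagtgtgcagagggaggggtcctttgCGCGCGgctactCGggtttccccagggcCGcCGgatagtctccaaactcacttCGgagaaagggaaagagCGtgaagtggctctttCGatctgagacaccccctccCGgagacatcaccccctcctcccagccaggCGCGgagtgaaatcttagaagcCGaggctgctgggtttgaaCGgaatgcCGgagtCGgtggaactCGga
CG reads the same on both strands, and the window holds 21 of them at a GC content of 61.0%. Among 32851 mouse promoter windows of the same length the median was 7, 94.6% held at least 1, and 24.8% held as many as Bcor or more. RefSeq gives Bcor 2 promoters, and only this one is shown. Neither binding, methylation nor the start site used in these cells was measured here, so the sequence is a description only.

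Among the listed genes Bcor was well covered. Its mean count of 1770 reads ranked 21 of 1653. Per kilobase of exon, the scale on which genes can be compared, it had 102.9, 91.4 and 71.5 reads in wild type 1 to 3 and ranked 48, 43 and 74 of the 1640 genes with a known length. In Yaf2KO 1 to 3 it had 553, 310 and 96.6 reads per kilobase and ranked 59, 57 and 86. On this scale Bcor thus stood near the top of the list in both genotypes, lowest in rank in library 3 of each.

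The raw count of Bcor was 892, 792 and 620 reads in wild type and 4796, 2683 and 837 in Yaf2KO. Yaf2KO 1 and 2 lay above every wild-type library, whereas Yaf2KO 3 fell between wild type 2 and wild type 1, so the groups overlapped. The means were 768 ± 138 in wild type and 2772 ± 1981 in Yaf2KO (SD, n = 3 each), a ratio of 3.61 (exact two-sided permutation test, p = 0.2; 3 libraries against 3 cannot give less than 0.1). As a background, 27.4% of all listed genes had every Yaf2KO count above every wild-type count. The listed genes together had 56367 to 72975 reads in wild type and 143682 to 451075 in Yaf2KO. These sums cover part of each library and are not its depth, which was not used here, so raw counts of different libraries cannot be set side by side as expression levels.

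As a share of the listed counts, Bcor took 1.36%, 1.41% and 0.850% in wild type 1 to 3. In Yaf2KO 1 to 3 it took 1.06%, 1.07% and 0.583%. Exact binomial 95% intervals, which cover counting error only, ran from 1.27% to 1.45%, 1.31% to 1.51% and 0.784% to 0.919% in wild type. They ran from 1.03% to 1.09%, 1.03% to 1.11% and 0.544% to 0.623% in Yaf2KO. Libraries within a genotype therefore differed by more than counting error: wild type 3 lay below wild type 1 and 2, and Yaf2KO 3 below Yaf2KO 1 and 2. The lowest of all 6 was Yaf2KO 3 and the 2 highest were wild type 1 and 2, while wild type 3 lay below Yaf2KO 1 and 2.

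**Figure D1:**
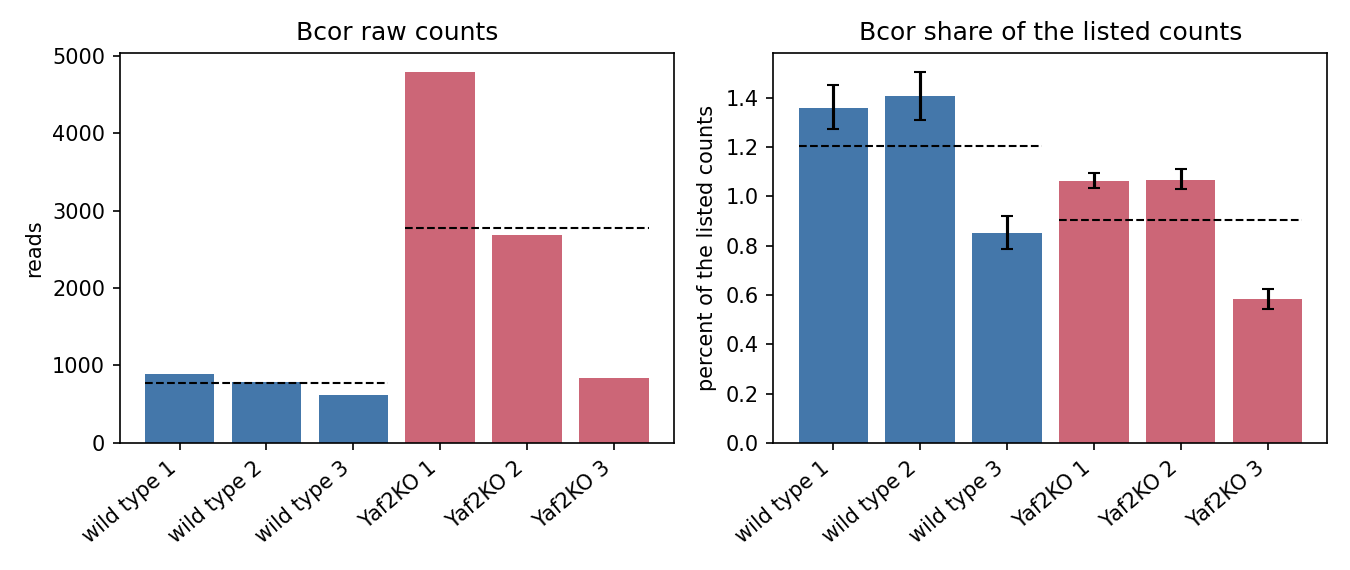
Bcor in each of the 6 libraries, as raw reads (left) and as percent of the listed counts (right). Bars are single libraries (blue wild type, red Yaf2KO), dashed lines are group means, and error bars on the right are exact binomial 95% intervals; raw counts are higher in Yaf2KO 1 and 2, whereas shares overlap between the genotypes.

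The mean share was 1.21% ± 0.309 in wild type and 0.905% ± 0.279 in Yaf2KO (SD, n = 3 each). The difference was -0.300 percentage points, a ratio of 0.751 (exact two-sided permutation test, p = 0.3, with 0.1 the smallest possible). In size it lay between these SDs. Of the 9 pairs of a Yaf2KO and a wild-type library, 7 had the lower share in Yaf2KO. The ratios of these 9 pairs ran from 0.415 to 1.26, and both ratios above 1 involved wild type 3. As a background, 2.6% of the listed genes had every Yaf2KO share below every wild-type share, and Bcor was not one of them. In RNA from whole cultures, fewer cells of a type and less RNA per cell cannot be told apart.

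In a model fitted to all genes with enough reads (edgeR, libraries scaled on the listed genes so that 0 stands for the typical gene of the list), the level of Bcor was 13310, 13670 and 8949 CPM (counts scaled to one fixed total of listed reads) in the wild-type libraries and 9879, 10580 and 6310 CPM in the Yaf2KO libraries. Wild type 3 was again below Yaf2KO 1 and 2. The fitted log2 fold change of Bcor came to -0.42, with an SE of 0.34 (adjusted p = 0.950 by edgeR's quasi-likelihood test with Benjamini-Hochberg adjustment). Bcor was thus not called. In the same fit 3 of 376 tested genes were (0.798%). The 95% interval of the log2 fold change ran from -1.18 to 0.33, that is from 0.443 to 1.26 times the wild-type level, so both a level of 0.5 times wild type and an unchanged level lie inside it. The Bcor estimate was the 69th lowest of the 376, of which 196 lay below 0, and the median over all tested genes was -0.03.

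**Figure D2:**
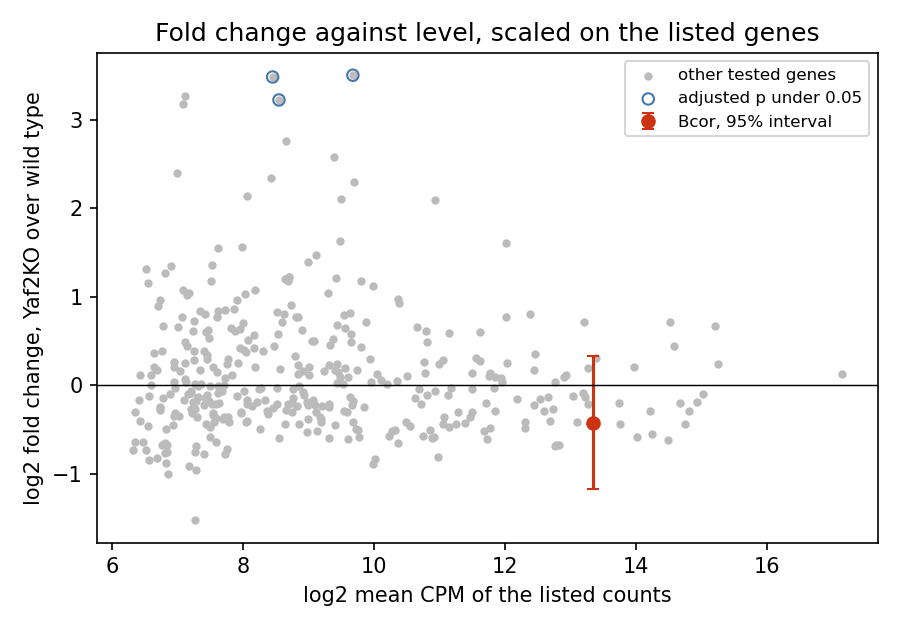
Log2 fold change of Yaf2KO over wild type against the log2 mean CPM of the listed counts for the 376 tested genes (grey points), with the 3 called genes circled and Bcor in red with its 95% interval. Bcor sits among the genes with the most reads, at -0.42, and its interval crosses 0.

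The scaling set the sign of this estimate. With all libraries taken as equally deep, Bcor had a log2 fold change of 1.85, with an SE of 0.68 (adjusted p = 0.0328 by edgeR), and 75.7% of the tested genes were called higher. The median of the 415 genes tested on that scale was 2.12, and Bcor lay below it by less than its SE. A change of scaling moves the genes largely together, so this place below the median is no separate result.

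Bcor was next ranked among genes with a similar mean count, which pools the genotypes and follows Yaf2KO 1 most. A gene can thus enter through high Yaf2KO counts. Klf4 did, with 148, 94 and 160 reads in wild type and 5073, 1120 and 507 in Yaf2KO. Between 0.5 and 2 times the mean count of Bcor there were 31 other genes. Their Yaf2KO to wild-type ratio of mean share ran from 0.621 to 3.15 with a median of 0.893, and 20 of them lay below 1. The ratio of Bcor, 0.751, was higher than that of 8 of them. In raw counts the ratio of Bcor, 3.61, was higher than that of 11, in a range of 2.36 to 16.7 with a median of 4.10. With all libraries Bcor was therefore in the lower part of this group, at percentile 25.8. Its percentile depended on single libraries: it was 6.67 without wild type 3, 13.8 without Yaf2KO 2 and 57.1 without Yaf2KO 3. Each time the group was redrawn from the mean counts of the remaining libraries, so the genes compared changed as well. Among the 31 genes and against the wild-type mean, the separate percentiles were 45.2, 51.6 and 9.68 for Yaf2KO 1, 2 and 3.

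**Figure D3:**
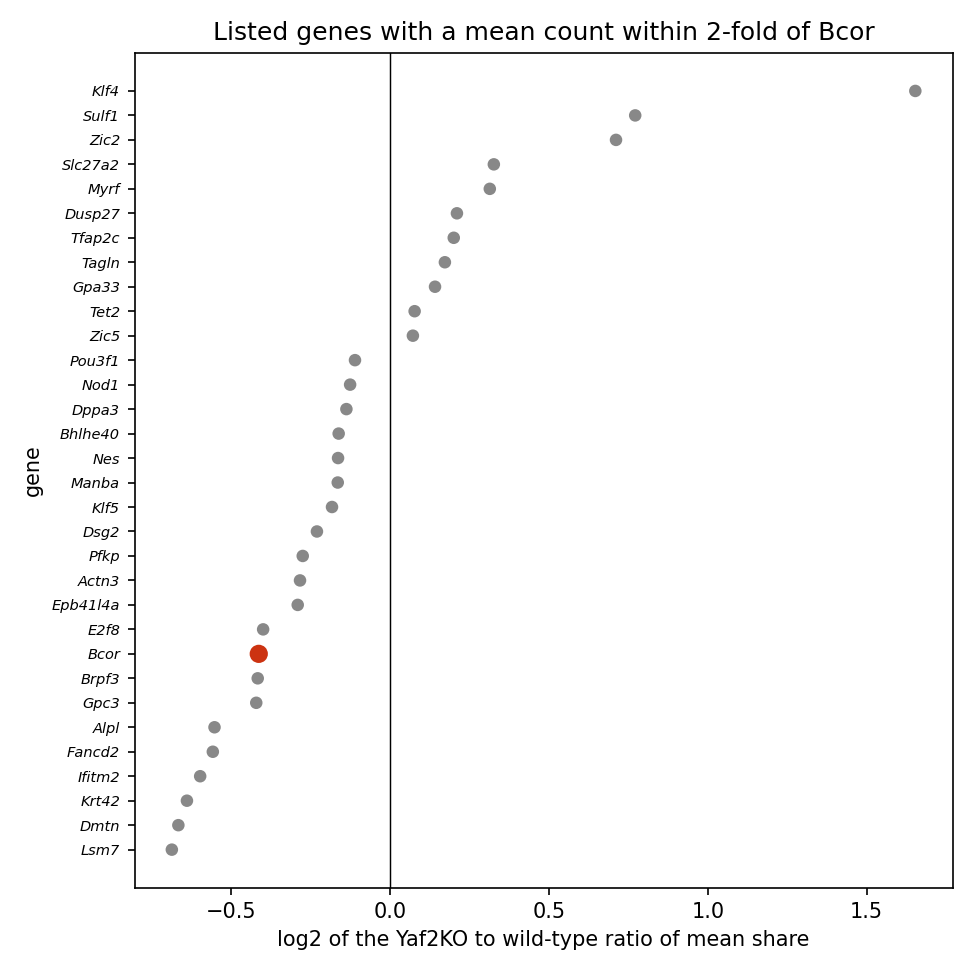
Each point is a gene with a mean count within 2-fold of that of Bcor, placed by the log2 ratio of its mean share in Yaf2KO to that in wild type. Bcor (red) has 8 of the 31 other genes below it, and Klf4 is the highest, at a ratio of 3.15.

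The genes next to Bcor in mean count showed the width of that range. Just above it were Myrf, encoding a membrane-anchored transcription factor (log2 fold change 0.31, SE 0.29), Tfap2c, encoding an AP-2 transcription factor (0.20, SE 0.35), and Klf5, encoding a pluripotency factor (-0.21, SE 0.37). Just below it were Zic2, a zinc-finger factor gene (0.72, SE 0.38), Gpa33, which encodes a cell-surface antigen (0.11, SE 0.35), and Pou3f1, a POU factor gene (-0.09, SE 0.35). None of these 6 was called by edgeR (adjusted p = 0.950 for each), and Bcor had the lowest estimate of the 7 genes.

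The share of Bcor in library 3 was low compared with most of these genes. Its share in wild type 3 was 0.625 times that in wild type 1, and only 3 of the 31 genes had a lower ratio (median 0.960). Its share in Yaf2KO 3 was 0.548 times that in Yaf2KO 1, with 9 of the 31 lower (median 0.931). The coefficient of variation of the Bcor share was 25.6% in wild type, above 24 of the 31 genes (median 15.8%), and 30.8% in Yaf2KO, above 15 of them (median 32.3%). Bcor was thus more variable than most of its peers within wild type and close to the middle within Yaf2KO. A share lowest in library 3 of both genotypes was seen in 7 of the 31 genes, and in 38 of the 160 other genes that averaged 100 reads or more. This pattern was noticed in the data, and no label says that the number 3 marks a shared batch.

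The ratio of 2 genes within a library does not depend on its depth, and by this measure Bcor was compared with those 160 genes. Likeness was the SD over the 6 libraries of the log2 ratio of Bcor to the gene, after adding 0.5 to each count. It ran from 0.170 to 3.11 with a median of 0.660. The 6 most similar genes lay between 0.170 and 0.240, and the next was at 0.277. They are named for their profile alone, and the 6 libraries that chose them are the ones described here.

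Closest was Fblim1, which encodes a filamin-binding adapter of cell adhesions (SD 0.170). It had 2108, 2106 and 1927 reads in the wild-type libraries against 11530, 6912 and 2569. Its mean log2 distance to Bcor was nearly equal in the genotypes, -1.43 in wild type and -1.42 in Yaf2KO. Tns3, encoding the adhesion protein tensin 3, followed (SD 0.180), with 1987, 1711 and 1710 reads against 14312, 7073 and 2096.

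The third was Brpf3, which encodes a scaffold of histone acetyltransferase complexes (SD 0.199). It had 1119, 920 and 1054 reads in wild type and 6642, 3247 and 1175 in Yaf2KO. Aqp3, a water and glycerol channel gene, was at 0.210 with 139, 114 and 81 reads against 578, 465 and 101. E2f8, encoding a repressor of the E2F family, was at 0.229 with 555, 442 and 454 against 2491, 1746 and 661. Aff1, encoding a member of the super elongation complex, was at 0.240 with 269, 239 and 187 against 2127, 743 and 275. In each of the 6 the share was lowest in Yaf2KO 3, as for Bcor, and the ratio of mean shares was between 0.730 (Aqp3) and 0.886 (Tns3). The way the 6 were chosen favours both traits, so neither is a separate result.

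**Figure D4:**
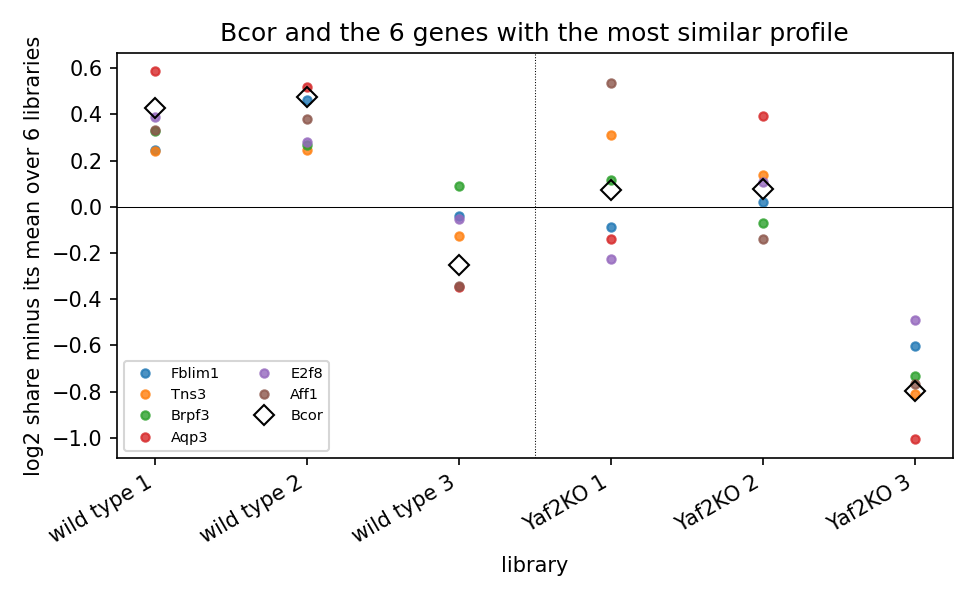
Log2 share of the listed counts in each library, minus the gene's own mean over the 6 libraries, for Bcor (open diamonds) and the 6 genes most like it (coloured points); the dotted line separates the genotypes. Every one of the 7 genes is lowest in Yaf2KO 3, which the choice of the 6 by their likeness to Bcor favours.

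Bcor was also set against 11 reference genes within each library. They were picked with earlier results of these data known, so a difference that comes from a gene already known to be high in Yaf2KO is no independent evidence. The mean log2 ratio was lower in Yaf2KO for 10 of the 11 and higher for Col1a1, with a median difference of -0.35. The groups were separate for 3 genes, each at the smallest p the design allows (exact permutation test, p = 0.1, adjusted p = 0.367 over the 11 genes), and the other 8 overlapped. Among all 160 other genes that averaged 100 reads or more, the ratio to Bcor was separate in 13.1%. This average pools the genotypes, so genes with few wild-type reads can pass through Yaf2KO. Lef1 did, with 9, 5 and 12 reads in wild type against 1315, 208 and 131 in Yaf2KO. The 13.1% is therefore not a neutral background.

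Against naive pluripotency genes the distances differed. The log2 ratio to Nanog, a core pluripotency factor, was -1.33, -1.14 and -2.15 in wild type and -2.06, -1.70 and -1.75 in Yaf2KO. Wild type 3 was the lowest of the 6, so the groups overlapped (difference -0.30, exact permutation test, p = 0.5, adjusted p = 0.978 over the 11 genes). The log2 ratio to Klf4, another naive factor, was 2.59, 3.07 and 1.95 in wild type and -0.08, 1.26 and 0.72 in Yaf2KO. Here every Yaf2KO library lay below every wild-type library, with a difference of -1.90. For Klf5 and for Tet2, which encodes a 5-methylcytosine oxidase, the differences were -0.16 and -0.35 and the groups overlapped.

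The other 2 separated genes were Otx2 and Lef1. The log2 ratio of Bcor to Otx2, a transcription factor gene of the exit from the naive state, was 4.78, 4.61 and 2.89 in wild type against 1.28, 2.14 and 1.05. For Lef1, an effector gene of WNT signalling, it was 6.55, 7.17 and 5.63 against 1.87, 3.69 and 2.67. In both, every Yaf2KO ratio lay below every wild-type ratio, with differences of -2.61 and -3.71. Lef1 itself was among the 3 genes called higher in the fit, and Otx2 was not called.

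Against the glucose transporter gene Slc2a3 the log2 ratio was -3.50, -3.45 and -3.73 in wild type and -3.47, -3.66 and -5.08 in Yaf2KO. Only Yaf2KO 3 lay below the wild-type range, and without it the difference was -0.009 (with all libraries -0.51, exact permutation test, p = 0.6, adjusted p = 0.978 over the 11 genes). The differences for the glycolysis gene Pfkp and the intermediate filament gene Nes were -0.07 and -0.16.

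**Figure D5:**
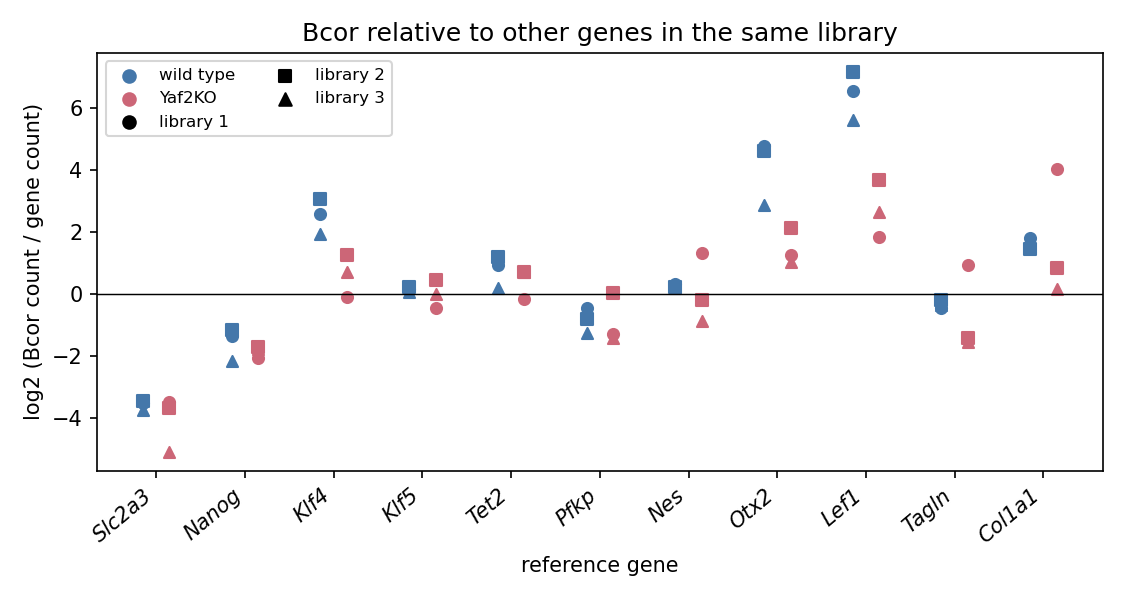
Log2 ratio of the Bcor count to the count of each reference gene in the same library (blue wild type, red Yaf2KO; circle, square and triangle are libraries 1, 2 and 3). The genotypes are separate for Klf4, Otx2 and Lef1 and overlap for the other 8 genes.

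Markers of the cultured cell types varied between the libraries. Of 10 pluripotency markers 5 were listed, and their summed share was 5.78% to 6.15% in wild type and 8.98%, 5.86% and 3.65% in Yaf2KO 1 to 3. Nanog was the largest part, at 3.105% to 3.777% in wild type and 4.445%, 3.468% and 1.96% in Yaf2KO 1 to 3. The members did not move together. Klf4 took 0.1668% to 0.2256% in wild type and 1.125%, 0.446% and 0.3529% in Yaf2KO 1 to 3. Nanog, Klf5 and Tet2 were instead below every wild-type library in Yaf2KO 3. The fibroblast feeder list had 5 of 18 members, Tagln, Acta2, Col1a1, Postn and Prrx1. Their summed share was 1.48% to 2.51% in wild type and 0.694%, 4.32% and 2.37% in Yaf2KO 1 to 3. Postn was at 0 in wild type 3 and Yaf2KO 1, and Prrx1 at 0 in Yaf2KO 1. Relative to Tagln, a smooth muscle gene of fibroblasts, the Bcor log2 ratio was -0.43, -0.18 and -0.33 in wild type and 0.94, -1.40 and -1.54 in Yaf2KO. Relative to the collagen gene Col1a1 it was 1.82, 1.47 and 1.56 against 4.05, 0.85 and 0.17. In both cases Yaf2KO 1 lay above all wild-type libraries and Yaf2KO 2 and 3 below them. The part of the feeder cells in the Bcor values was not tested. The single listed primitive endoderm marker was Sox7 (27, 20 and 11 reads against 113, 75 and 19, log2 fold change -0.42, SE 0.55). The single trophectoderm marker was Tfap2c, given above.

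Bcor stood alone among the genes of its own machinery. It was the 1 listed gene of 11 PRC1.1 subunit symbols. Of 32 other PRC1 symbols, 14 PRC2 symbols and 10 symbols of histone H2A deubiquitinases and their cofactors, 0 were listed. In the annotation carried by the deposited files it was also the 1 gene with the terms for Polycomb protein complex and for H2A monoubiquitination. YAF2 itself and the subunits that bind BCOR were therefore not analysed here. Of 13 symbols for BCL6 and its corepressor partners only Zbtb16, encoding another BTB-domain repressor, was listed, with 3, 1 and 1 reads in wild type and 7, 7 and 3 in Yaf2KO, too few to test.

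Primitive streak and mesoderm regulators, a class that PRC1 is known to silence, had 8 of 21 members listed and 6 tested. By edgeR 1 of the 6 was called higher and 0 lower, beside 0.798% of all tested genes called, and the median log2 fold change was 0.63 against -0.03 over all tested genes. The called gene was Wnt8a, a WNT ligand of the streak, with 7, 3 and 4 reads in the wild-type libraries against 335, 183 and 82 (3.23, SE 0.55, adjusted p = 0.0434). Its call was lost in 6 of 16 alternatives, with limma-voom, with the replicate block and without wild type 1, 2 or 3 or Yaf2KO 2 (highest adjusted p = 0.327, Benjamini-Hochberg over all tested genes). The streak factor T had 8, 7 and 4 reads against 20, 140 and 38 (1.55, SE 0.86), the zinc-finger factor gene Sp5 was at 0.49 (SE 0.65) and the ligand gene Wnt3 at 0.77 (SE 0.67). Of the 6, 1 lay below Bcor. Wnt8a and T have few wild-type reads and can pass the read filter of the fit through Yaf2KO. Neither the call nor the median of the list is therefore a neutral measure of this class.

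Genes that share an annotated function with Bcor in the deposited files were described in the same way. Of 12 other transcription corepressor genes 8 were tested, 0 were called, and the median log2 fold change was -0.05. E2f8, among the genes most like Bcor above, was at -0.40 (SE 0.32), and Bhlhe40, a helix-loop-helix repressor gene, at -0.14 (SE 0.46). Of 11 other heart development genes 8 were tested and 0 called (median -0.04), among them Ifitm2, encoding an interferon-induced membrane protein (-0.62, SE 0.33), Id3, an inhibitor of helix-loop-helix factors (-0.16, SE 0.45), and Vcan, which encodes the matrix proteoglycan versican (0.13, SE 0.42). Of 14 other palate development genes 8 were tested and 2 called higher, Lef1 and Wnt8a, beside 0.798% of all tested genes (median 0.28). Both have few wild-type reads and can pass the read filter through Yaf2KO, so this count is not a neutral one. Like that of Wnt8a, the call of Lef1 was lost with limma-voom, with the replicate block and without wild type 1, 2 or 3. Of 8 other tooth development genes 5 were tested and 0 called (median -0.16), among them Aqp3, given above, at -0.46 (SE 0.46).

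On the X chromosome 41 other protein-coding genes were listed and 19 of them tested, with 0 called in either direction. Their median log2 fold change was -0.15, in a range of -0.81 to 0.83, and 2 of them lay below Bcor. These were Pnma5, a gene of the paraneoplastic antigen family (-0.81, SE 1.02), and Eras, encoding a RAS-like GTPase of embryonic stem cells (-0.51, SE 0.34). Gpc3, a glypican gene, was next to Bcor at -0.42 (SE 0.32), and the PIM kinase gene Pim2 was at 0.72 (SE 0.36). The X-linked genes summed to 5.68% to 6.51% of the listed counts in wild type and 5.42% to 7.25% in Yaf2KO.

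No listed protein-coding gene was close to Bcor on the chromosome. The nearest at lower coordinates were Slc38a5, an amino acid transporter gene 3.76 Mb away (-0.18, SE 0.83), and Porcn, which encodes the acyltransferase that WNT ligands need, 3.83 Mb away (0.59, SE 0.37). At higher coordinates Gm14569 lay 24.3 Mb away (-0.31, SE 0.58) and Gm9 was the next beyond it, with too few reads to test. None of the 3 tested neighbours was called by edgeR.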

How the data were processed

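Poly-T selected RNA was sequenced with an NEBNext Ultra library kit, per the labels' protocols. The deposited values are raw read counts per gene, 1 file for each library, per the file headers. The tools listed are HTSeq 0.6.0, Cufflinks 2.2.1 and TopHat2 2.0.12 with build mm10, per the submitters' processing notes, which give no roles. No source used here gives a strand setting. The files list the same 1653 genes in different orders and were joined by gene identifier; 1640 were found in GENCODE M21.

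Sample titles gave the groups and the library numbers. Over all 15 pairs of libraries the lowest chi-square per degree of freedom was 5.01, so no pair agreed within sampling noise. edgeR 4.0.16 (R 4.3.3) used filterByExpr, TMM factors (0.923 to 1.08), library sizes of all listed counts, robust quasi-likelihood fits and Benjamini-Hochberg adjustment at 0.05 over 376 genes; the script was tested on simulated data. Standard errors are the fold change over the root of the F statistic. Alternatives were DESeq2 1.42.0, limma 3.58.1, other scalings and filters, the replicate number as a block and each library left out. Python 3.11.15, scipy 1.17.1 and matplotlib 3.10.9 did the rest.

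Bcor and all lists and reference genes were chosen with earlier results of these data known; the lists by deposited annotation terms were added after the files were seen. The named genes are Bcor, the reference genes, its neighbours in mean count (3 on each side) and on the chromosome (2 on each side), the 6 genes of most similar profile, and members of each list (every listed member up to 4, otherwise the 4 with the most reads); Prrx1, Pnma5, Gpc3, Eras and Pim2 were named from their list after their values were seen. The values of 1 further list member are not reported here.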

Additional observations from a re-analysis of the deposited data

How the results depend on the processing

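Raw depth was not used here, so a change of Bcor common to the whole list cannot be seen. Its log2 fold change of -0.42 stayed below 0 and uncalled in 15 of 16 alternatives, between -0.61 and -0.13, and was 1.85 and called with libraries taken as equally deep, which by construction keeps the shift shared by the list. With single libraries left out it ran from -0.61 (without wild type 3) to -0.22 (without Yaf2KO 3). With library sizes of the tested genes only, chosen after the data were seen, it was -0.33.

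The 3 called genes became 10 with the DESeq2 Wald test, 0 with limma-voom (16 at an unadjusted value under 0.05), 15 without a low-count filter, 15 at a mean CPM of at least 1 and 314 at equal depth; dropping the filter adds tested genes, and otherwise the cause was not tested. Leaving out single libraries gave 0 to 11 calls, with 0 without wild type 1, 2 or 3, 1 without Yaf2KO 2 and 11 without Yaf2KO 1. With the replicate block there were 0 calls by edgeR (18 at an unadjusted value under 0.05) and Bcor was at -0.43. The libraries share only the numbers: over genes, the deviations of libraries 1, 2 and 3 correlated across the genotypes at 0.024, 0.14 and 0.14, and 3 of 6 libraries correlated best with their own number.

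The share difference of -0.300 percentage points kept its sign with single libraries left out (-0.478 without wild type 3 to -0.139 without Yaf2KO 3) and without the 10 most abundant genes (-0.437). The percentile of 25.8 ran from 6.67 (without wild type 3) to 57.1 (without Yaf2KO 3), with the group redrawn from the remaining libraries. In raw counts it was 35.5. It was 20 among the 50 genes next below Bcor in mean count and all genes above it. Those above were fewer than 50, as Bcor ranked 21. The median difference over the reference genes, -0.35, ran from -0.81 (without Yaf2KO 1) to -0.17 (without Yaf2KO 3), and was -0.34 at a pseudocount of 5. With single libraries left out the sign turned for Klf5 (-0.38 to 0.067), Pfkp (-0.53 to 0.195), Nes (-0.78 to 0.319), Tagln (-1.16 to 0.085) and Col1a1 (-1.11 to 0.830); it did not for Slc2a3 (-0.81 to -0.009, without Yaf2KO 3), Tet2 (-0.63 to -0.058, without Yaf2KO 1), Nanog (-0.60 to -0.098, without wild type 2), Klf4 (-2.22 to -1.54), Otx2 (-3.21 to -2.26) and Lef1 (-4.18 to -3.27), and the first 3 came close to 0.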
